A study of Homo sapiens with 2 samples.

Results

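The 10 members examined of the SOX family, SOX2, SOX3, SOX4, SOX9, SOX11, SOX12, SOX13, SOX15, SOX17 and SOX18, were followed in TCam-2 cells. They were chosen by name, as the members proposed for a description of the family and of the pair SOX17 and SOX2, and were located by symbol among the 62700 genes of the deposited gene table. All 10 were found. The established line TCam-2 was derived from a human seminoma, a germ cell tumour of the testis. The labels give the genotype of both libraries as DDX53 overexpression, and the series' design says that the cells received DDX53-FLAG, a tagged form of the RNA helicase DDX53, by transduction. They name no promoter, clone, dose or time after transduction. Polyadenylated RNA was measured in 1 group of 2 replicate libraries. The labels do not say that the replicates came from separate cultures, so differences between them may be technical. Cells with GFP-FLAG and untransduced cells were the study's controls and were not analysed here. No effect of DDX53 can therefore be given. Genes were compared with each other inside a library, and each gene was compared across the libraries.

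SOX proteins are transcription factors that bind the minor groove of DNA and bend it, through a conserved domain named the HMG box after the high mobility group proteins. Most of them act with a partner factor, and the pair reads a composite DNA site. SOX2 pairs with the POU factor OCT4, the product of POU5F1, in pluripotent cells and in embryonal carcinoma. SOX17 is known for its role in endoderm and in human primordial germ cells, and it marks seminoma, whereas SOX2 marks embryonal carcinoma. The family is divided into lettered subgroups by the sequence of the box. SOX2 and SOX3 belong to SoxB1, SOX4, SOX11 and SOX12 to SoxC, SOX13 to SoxD, SOX9 to SoxE, SOX17 and SOX18 to SoxF, and SOX15 alone to SoxG.

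The box defines the family. The coding DNA from a conserved start motif in the HMG box is shown for 9 members, 60 bases each, 5′ to 3′ on the strand of the gene, from the GENCODE 29 transcripts on GRCh38. Capitals mark the bases that differ from SOX2, and each stretch lies within 1 coding exon. The SOX17 sequence is not shown.
SOX2: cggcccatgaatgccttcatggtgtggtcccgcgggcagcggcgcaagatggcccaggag
SOX3: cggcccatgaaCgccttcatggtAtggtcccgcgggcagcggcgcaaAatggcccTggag
SOX15: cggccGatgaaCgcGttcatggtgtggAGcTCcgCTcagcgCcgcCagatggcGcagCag
SOX4: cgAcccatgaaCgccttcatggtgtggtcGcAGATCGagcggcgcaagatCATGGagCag
SOX11: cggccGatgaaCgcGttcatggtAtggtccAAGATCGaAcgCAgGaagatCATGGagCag
SOX12: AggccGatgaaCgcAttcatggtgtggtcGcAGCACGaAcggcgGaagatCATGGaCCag
SOX9: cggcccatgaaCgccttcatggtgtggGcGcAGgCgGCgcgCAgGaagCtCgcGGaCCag
SOX13: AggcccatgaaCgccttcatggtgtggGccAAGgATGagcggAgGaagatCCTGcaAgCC
SOX18: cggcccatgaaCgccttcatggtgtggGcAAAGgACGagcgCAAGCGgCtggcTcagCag
The stretches lie at chr3:181712487-181712546 for SOX2, chrX:140504581-140504640 for SOX3 and chr17:7589467-7589526 for SOX15. Those of the SoxC genes are at chr6:21594715-21594774 for SOX4, chr2:5692872-5692931 for SOX11 and chr20:326048-326107 for SOX12. SOX9 is at chr17:72121710-72121769, SOX13 at chr1:204123705-204123764 and SOX18 at chr20:64049199-64049258. SOX3, SOX15 and SOX18 are on the minus strand and the other 6 on the plus strand.

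SOX3 was closest to SOX2, with 4 differing bases of 60, of which 3 were at the last position of a codon. SOX15 followed with 13 differing bases, SOX4 with 15 and SOX9 with 17. SOX13 and SOX18 differed at 18 bases each, SOX12 and SOX17 at 20 each, and SOX11 at 21. Over 210 bases of the box, the 5 pairs within a subgroup were 85.2% to 89.0% identical (median 85.7%). The 40 pairs from different subgroups were 63.3% to 79.5% identical (median 69.3%), so the groups did not overlap. Since the subgroups are drawn by the sequence of the box, this separation is built in and is no separate result. SOX17 and SOX18 were the most alike, at 89.0%, and SOX2 and SOX17 were 70.0% identical.

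Long runs of bases shared with other genes were few. Every stretch of 31 bases of a member's main transcript was sought in the transcripts of all other genes. SOX13, SOX15 and SOX18 had none in common with another gene. SOX17 shared 7 of its 2312 stretches, or 0.303%, with SOX8 and AC091076.1. SOX2 shared the largest portion, 94 of 2483 stretches or 3.79%, with SOX1, SOX14, SOX21 and AC090192.1. Between the members themselves, only the SoxC genes shared such stretches, 3 in SOX4, 5 in SOX11 and 8 in SOX12. How the counting treated reads with several matches is not given in the sources used here.

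The places of the genes are those of GENCODE 29 on GRCh38. SOX2 is a gene of 1 exon on chromosome 3 from 181711924 to 181714436, inside the span of the noncoding gene SOX2-OT on the same strand, with which it shares no exonic base. SOX3 (chromosome X, 140502985 to 140505116), SOX4 (chromosome 6, 21592768 to 21598619), SOX11 (chromosome 2, 5692667 to 5701385) and SOX12 (chromosome 20, 325595 to 330224) also have 1 exon. SOX17 (chromosome 8, 54457935 to 54460888) and SOX18 (chromosome 20, 64047582 to 64049641) have 2 exons each. SOX9 (chromosome 17, 72121020 to 72126420) has 3. SOX15 (chromosome 17, 7588178 to 7590170) and SOX13 (chromosome 1, 204073115 to 204127743) are the members with more than 1 transcript. SOX15 shares 15 exonic bases with MPDU1 on the opposite strand, 0.973% of its exons. The libraries were made with a kit that keeps the strand, per the labels' protocols. SOX4 shares 168 exonic bases with AL512380.2 on the opposite strand and SOX11 shares 74 with AC108025.2 on its own strand, and neither of those genes had a read in either library.

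The libraries held 24137664 reads in genes in replicate 1 and 22198929 in replicate 2. CPM is a gene's reads per 1000000 of these. At this depth a count of 0 allows up to 3 reads, or 0.124 CPM in the first library and 0.135 CPM in the second. Such limits and all intervals cover counting error only. In such bulk RNA, fewer cells that express a gene and less RNA per cell cannot be told apart. Detection was set at 1 CPM in each of the libraries, a level reached by 21.7% of all genes and by 61.7% of the 19831 protein-coding genes. Of the 10 SOX genes 7 were detected, which is near the share of protein-coding genes. They were SOX4, SOX9, SOX12, SOX13, SOX15, SOX17 and SOX18, and 4 of them were over 100 CPM in both libraries.

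SOX17 was abundant and SOX2 was barely present. SOX17 had 142.6 CPM from 3442 reads in replicate 1 (95% Wilson interval, 138 to 147) and 146.5 CPM from 3252 reads in replicate 2 (142 to 152). The libraries agreed within counting error, at a mean of 145 ± 2.75 CPM (SD, n = 2). SOX2 had 24 reads in each library, which is 0.994 CPM (95% Wilson interval, 0.668 to 1.48) in replicate 1 and 1.08 CPM (0.727 to 1.61) in replicate 2. Its mean was 1.04 ± 0.0614 CPM (SD, n = 2), with the detection threshold inside both intervals. In reads, SOX17 exceeded SOX2 143-fold in replicate 1 (exact 95% interval, 96.2 to 224) and 135.5-fold in replicate 2 (90.9 to 212). Reads grow with the length of a transcript, so the pair was also compared per length, in TPM, salmon's estimate of transcript abundance, which is divided by length. SOX17 had 119 and 124 TPM and SOX2 had 0.618 and 0.683 TPM. The ratio was 193 in replicate 1 and 182 in replicate 2, a mean of 187 ± 7.93 (SD, n = 2). From CPM per kilobase of exons it was 154 and 145, a mean of 150 ± 6.01 (SD, n = 2).

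SOX3, the other SoxB1 member, is an X-linked factor of the developing brain and pituitary. It had 4 reads in replicate 1 and 3 in replicate 2, or 0.166 and 0.135 CPM. That is close to the limit of detection, and the mean was 0.150 ± 0.0216 CPM (SD, n = 2). Per length it had 0.142 and 0.118 TPM, and SOX17 was 841 and 1048 times higher.

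SOX18, the other SoxF member, acts in the endothelium of blood and lymph vessels. It had 9.28 CPM from 224 reads in replicate 1 (95% Wilson interval, 8.14 to 10.6) and 8.02 CPM from 178 reads in replicate 2 (6.92 to 9.29). The intervals overlapped, and the mean was 8.65 ± 0.892 CPM (SD, n = 2). In TPM SOX18 had 13.7 and 12.4, and SOX17 was 8.72 and 10.1 times higher. SOX18 was thus detected in both libraries at a lower level than its closest relative by sequence.

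SOX15, the SoxG gene, is related to the SoxB1 genes by its box and was highly expressed. It had 139.8 CPM from 3374 reads in replicate 1 (95% Wilson interval, 135 to 145) and 123.2 CPM from 2735 reads in replicate 2 (119 to 128). Replicate 1 was the higher library and the intervals did not overlap. Since its transcript is short, SOX15 led the family per length, at 173 and 155 TPM, a mean of 164 ± 12.9 TPM (SD, n = 2). SOX17 had 0.689 times the TPM of SOX15 in replicate 1 and 0.801 times in replicate 2, although its reads were 1.02 times (exact 95% interval, 0.973 to 1.07) and 1.19 times (1.13 to 1.25) those of SOX15.

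SoxC genes are widely expressed in embryonic progenitor cells, and SOX4 is often abundant in tumours. SOX4 had 3084 and 2638 reads, or 127.8 CPM (95% Wilson interval, 123 to 132) in replicate 1 and 118.8 CPM (114 to 123) in replicate 2. Replicate 1 was higher, and the intervals overlapped narrowly. SOX12 had 815 and 865 reads, or 33.8 CPM (31.5 to 36.2) and 39.0 CPM (36.5 to 41.7). Here replicate 2 was higher, and the intervals did not overlap. SOX11, which is known from neurons in development, had 12 and 15 reads, or 0.497 CPM (0.284 to 0.869) and 0.676 CPM (0.410 to 1.11). It was not detected by the threshold, and its intervals overlapped widely. Per length the subgroup spanned 41.7 and 38.1 TPM in SOX4, 11.3 and 13.3 TPM in SOX12, and 0.0845 and 0.111 TPM in SOX11.

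SOX13 is a SoxD factor, a group whose members have no activation domain of their own. It had 2530 and 2474 reads, or 104.8 CPM (95% Wilson interval, 101 to 109) and 111.4 CPM (107 to 116), with overlapping intervals. Its TPM was 37.2 in replicate 1 and 40.6 in replicate 2. In TPM the level of SOX13 was thus close to that of SOX4. In CPM per kilobase of exons SOX13 was lower, at 14.1 and 15.0 against 21.8 and 20.3. That measure divides by all 7420 merged exonic bases of SOX13. Its main transcripts, SOX13-203 and SOX13-210, have 3587 and 3476 bases.

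SOX9, the SoxE factor that directs Sertoli cell and cartilage development, differed most between the libraries among the members. It had 7.79 CPM from 188 reads in replicate 1 (95% Wilson interval, 6.75 to 8.98) and 4.68 CPM from 104 reads in replicate 2 (3.87 to 5.68). The intervals did not overlap, and the mean was 6.24 ± 2.19 CPM (SD, n = 2). The transcript table gave the same direction, 3.13 TPM in replicate 1 and 1.85 TPM in replicate 2.

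**Figure D1:**
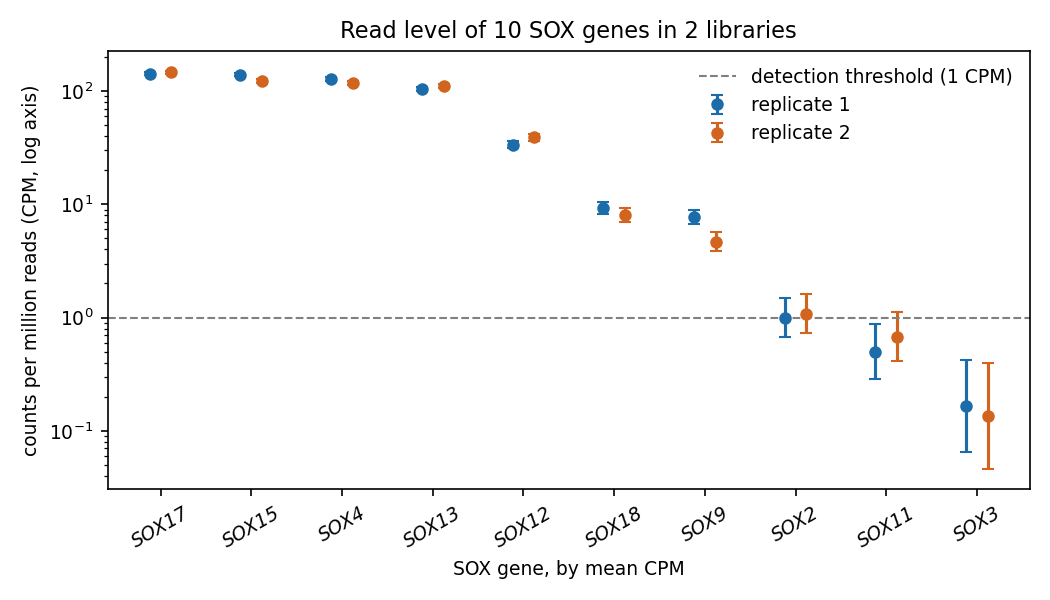
CPM on a log axis of the 10 SOX genes in replicate 1 (blue) and replicate 2 (orange), with bars for the 95% Wilson interval of counting error and a dashed line at the detection threshold of 1 CPM. SOX17, SOX15, SOX4 and SOX13 sit above 100 CPM in both libraries, SOX2 sits on the threshold, and SOX11 and SOX3 lie below it.

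Per length, the order of the means was SOX15, SOX17, SOX4, SOX13, SOX18, SOX12, SOX9, SOX2, SOX3 and SOX11. Means of TPM spanned 1676-fold from SOX15 to SOX11. Neighbours in this order were called apart where their values over both libraries did not overlap, which held for 7 of 9 pairs. SOX4 and SOX13 were not apart in TPM (ratio of means 1.03), nor were SOX18 and SOX12 (1.06). In CPM per kilobase of exons SOX4 and SOX13 were apart, as were 8 of 9 neighbouring pairs in the order by that measure. The steps between the others were 1.35-fold from SOX15 to SOX17, 3.05-fold from SOX17 to SOX4, 2.99-fold from SOX13 to SOX18 and 4.95-fold from SOX12 to SOX9. Below these, SOX9 exceeded SOX2 3.83-fold, SOX2 exceeded SOX3 5.00-fold and SOX3 exceeded SOX11 1.33-fold. SOX3 and SOX11 had at most 15 reads in a library, and their values overlapped in CPM per kilobase of exons. By that measure SOX12 stood above SOX18, with 7.29 and 8.42 against 4.98 and 4.30 CPM per kilobase.

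**Figure D2:**
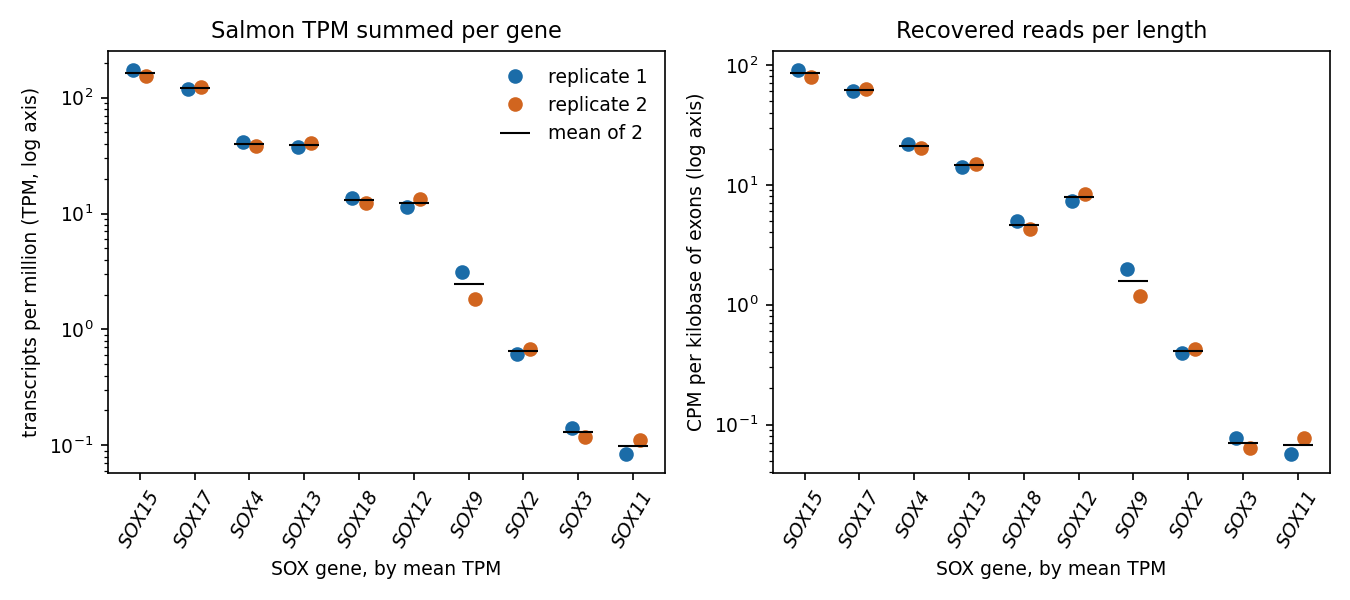
Levels per length of the 10 SOX genes on log axes, as TPM summed per gene (left) and as CPM per kilobase of merged exons (right), with a point for each library and a bar for the mean of 2. SOX15 and SOX17 lead in both panels, and SOX12 and SOX18 change places between them.

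Among all genes with 1 TPM or more, 93.1% were lower than SOX15 and 90.6% were lower than SOX17. The corresponding shares were 74.7% for SOX4, 74.2% for SOX13, 47.9% for SOX18, 46.5% for SOX12 and 12.5% for SOX9. SOX15 and SOX17 thus ranked high among expressed genes, and SOX18 and SOX12 near the middle.

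The other 9 SOX genes of the table added little. Of these, SOX1 (SoxB1) and SOX8 (SoxE) were detected, SOX1 with 50 and 38 reads or 1.89 ± 0.254 CPM and SOX8 with 62 and 60 reads or 2.64 ± 0.0949 CPM (SD, n = 2 each). SOX5 had 14 and 17 reads and SOX7, the last SoxF gene, had 15 and 20. SOX6 had 5 and 2, SOX21 had 1 and 12, and SOX30 had 1 and 7. SOX10 and SOX14 had no read in either library. In TPM SOX1 and SOX2 were alike, with 0.677 ± 0.105 TPM and 0.651 ± 0.0459 TPM (SD, n = 2 each), and their values overlapped. In CPM per kilobase of exons SOX1 was higher, with 0.729 and 0.602 against 0.396 and 0.430 for SOX2. Summed TPM over the 19 SOX genes was 403.4 in replicate 1 and 389.6 in replicate 2, of which the 10 listed members held 99.3% and 99.2%. SOX15 held 42.9% and 39.8% of the sum, SOX17 29.6% and 31.9%, SOX4 10.3% and 9.77%, and SOX13 9.21% and 10.4%. The whole SoxB1 subgroup held 0.375% and 0.360%, against 33.1% and 35.2% for SoxF and 13.2% in each library for SoxC. SoxF and SoxB1 shares thus differed far more than the libraries did.

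Whether a gene differed between the libraries by more than counting noise was tested on the reads (edgeR, exact binomial test, two-sided, Benjamini-Hochberg adjusted over the 15299 genes tested). With 1 library on a side, the result is about these libraries and not about conditions. It called 13.1% of the genes, 6.78% higher and 6.35% lower in replicate 2. Of the 10 SOX genes 9 were tested and 3 were called, 1 higher and 2 lower in replicate 2. This count and the 13.1% are not at like depth, since smaller differences pass the test where reads are many. The median of all genes tested was 18.7 CPM. SOX9 was lower, with a log2 difference of CPM + 1 of -0.63 (adjusted p of 6.3e-04). SOX15 was lower by less, with a log2 difference of -0.18 (adjusted p of 7.6e-05). SOX12 was higher, with a log2 difference of 0.20 (adjusted p of 0.0236). These differences in level corresponded to 1.66-fold higher CPM of SOX9 and 1.13-fold higher CPM of SOX15 in replicate 1, and 1.15-fold higher CPM of SOX12 in replicate 2.

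For SOX17 the log2 difference was 0.04 (adjusted p of 0.459) and for SOX2 it was 0.06 (adjusted p of 0.919). SOX2 rested on 24 reads in each library, and a difference within its intervals was not detectable at this depth. SOX13 had a log2 difference of 0.09 (adjusted p of 0.109), SOX4 of -0.10 (0.0758), SOX18 of -0.19 (0.422) and SOX11 of 0.16 (0.713). SOX3 had too few reads for the test. With library totals as the only scaling, SOX4 passed the threshold as well, with an adjusted p of 0.0493. None of the 4 other SOX genes tested was called, against 13.1% of all genes tested, but these 4 had few reads, so this says little.

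**Figure D3:**
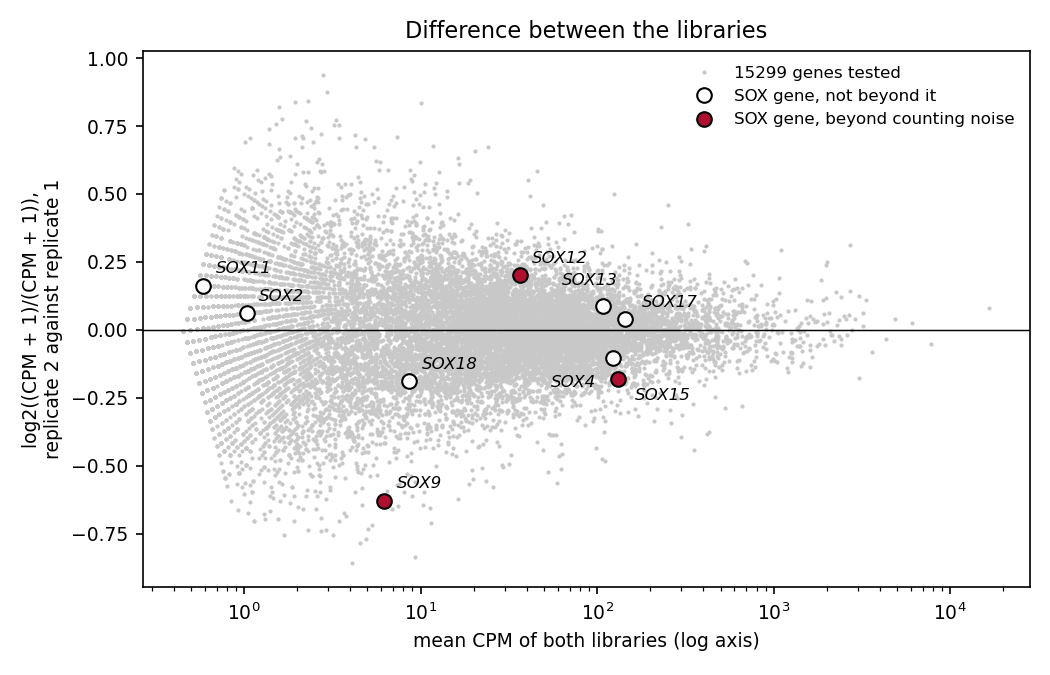
Difference between the libraries, log2 of (CPM + 1) in replicate 2 over replicate 1, against mean CPM on a log axis, for the 15299 genes tested (grey) and the 9 SOX genes among them (circles, filled where the adjusted p of the exact binomial test was under 0.05). SOX9 lies at -0.63, near the lower edge of the genes of like level, while SOX17 lies close to 0.

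The transcript table gave 21 transcripts for the 10 genes. Of these genes 8 had 1 matched transcript, so their TPM is that of the transcript. SOX13 had 10. Its leading transcript, SOX13-203, had 26.1 TPM in replicate 1 and 21.3 TPM in replicate 2, while SOX13-210 had 10.2 and 18.5 TPM. Both are annotated as protein-coding, with lengths of 3587 and 3476 bases. The share of SOX13-203 in the gene was 70.2% in replicate 1 and 52.4% in replicate 2, and that of SOX13-210 was 27.4% and 45.6%. The leading transcript's share moved by 17.8 percentage points, a larger shift than in 96.1% of 7040 genes with more than 1 transcript and at least 10 TPM, where the median was 3.01 points. The gene's summed TPM moved by much less, from 37.2 to 40.6. The depth behind a transcript's TPM is not in the table, so the shift has no interval and was not tested. Of the other SOX13 transcripts, 4 were at 0 in both libraries.

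SOX15 had 3 transcripts. SOX15-201 had 162 and 146 TPM and held 93.8% of the gene in replicate 1 and 94.2% in replicate 2. SOX15-202 had 7.98 and 6.17 TPM and SOX15-203 had 2.80 and 2.76 TPM. The lower level of SOX15 in replicate 2 was thus seen in its main transcript, with nearly the same shares.

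**Figure D4:**
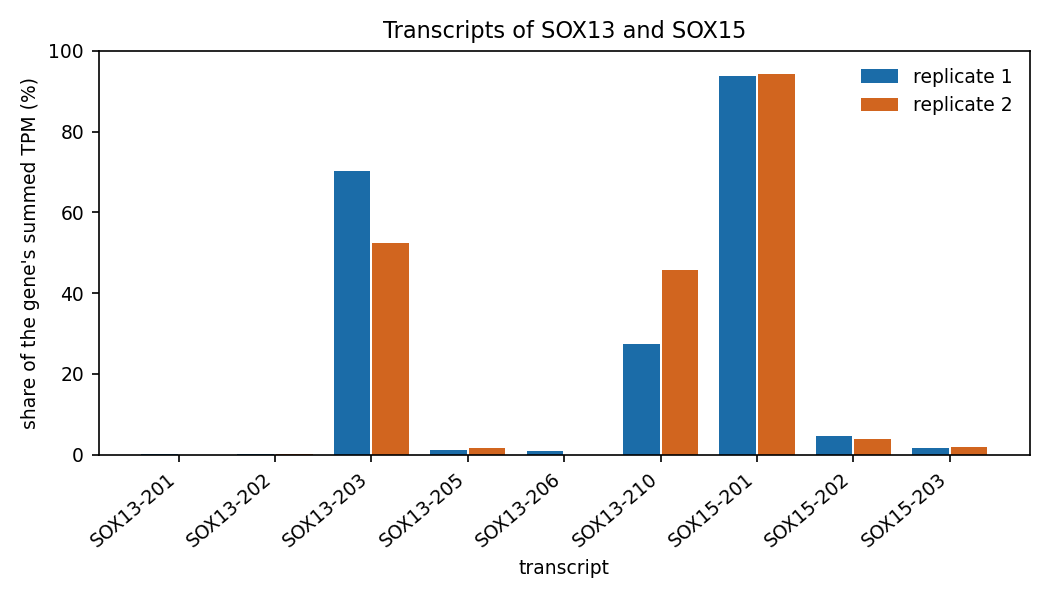
Share of the gene's summed TPM, in percent, held by each transcript of SOX13 and SOX15 that was above 0 in either library, with replicate 1 in blue and replicate 2 in orange. SOX13-203 and SOX13-210 moved towards each other between the libraries (70.2% and 27.4%, then 52.4% and 45.6%), while SOX15-201 stayed near 94%.

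The deposited tables were compared for the members through the ratio of CPM to the CPM predicted from TPM times transcript length. Its median over 12984 genes was 0.12 in each library on the log2 scale. Over the 10 SOX genes it was -0.14 in replicate 1 and -0.16 in replicate 2. Single members ranged from -0.95 for SOX18 to 0.27 for SOX13, between the 5% and 95% quantiles of those genes, which were -1.43 and 1.11 in replicate 1. SOX18 had the fewest reads for its TPM, and it is the gene whose place against SOX12 changed with the table. SOX17 was at -0.39 and -0.42 and SOX2 at -0.07 and -0.09, so the ratio of SOX17 to SOX2 was lower in reads per length than in TPM.

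Genes that go with particular SOX factors were described from lists, by the number detected and by CPM, which is not per length. For comparison, 61.7% of protein-coding genes reached 1 CPM in both libraries. Of 12 germ cell and seminoma genes that accompany SOX17, 12 were detected, at a median of 110 CPM. The median over detected genes was 24.4 CPM and over protein-coding genes 6.76 CPM. Per length the gap was smaller, with a median of 28.0 TPM for the list and 12.4 TPM over detected genes. The most reads fell on POU5F1, which encodes OCT4, with 1906 ± 21.1 CPM, TFAP2C, which acts with SOX17 in primordial germ cells, with 1251 ± 6.31 CPM, and NANOG, with 698 ± 9.99 CPM (SD, n = 2 each). Since OCT4 also pairs with SOX2 in embryonal carcinoma, POU5F1 does not mark the SOX17 side alone. Near-identical pseudogenes exist for POU5F1 and NANOG, and reads can be split with them. PRDM1, the repressor that acts below SOX17 in human germ cell specification, was at 90.0 ± 8.26 CPM (SD, n = 2). DND1 (3.06 ± 0.765 CPM), NANOS3 (5.53 ± 0.785 CPM) and TCL1A (15.7 ± 1.05 CPM) lay below the median of detected genes (SD, n = 2 each). KIT had 67.9 ± 0.233 CPM but only 4.22 ± 1.21 TPM (SD, n = 2 each), so its level is uncertain. In edgeR's exact binomial test, POU5F1 (log2 difference of 0.02, adjusted p of 0.0185) and PDPN (0.05, adjusted p of 0.0241) were higher in replicate 2. PRDM1 (-0.19, adjusted p of 0.00121) and TFCP2L1 (-0.28, adjusted p of 2.7e-11) were lower. In all, 4 of the 12 were called, against 13.1% of all genes tested. These shares are not at like depth, since smaller differences pass this test where reads are many. The median of all genes tested was 18.7 CPM.

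Genes of embryonal carcinoma, on the SOX2 side, were largely detected as well, although SOX2 itself was not. Of 12 such genes 10 were detected, at a median of 20.6 CPM. The most reads fell on TDGF1, a NODAL co-receptor, with 123 ± 5.03 CPM, DNMT3B, a de novo DNA methyltransferase, with 111 ± 18.4 CPM, and its cofactor DNMT3L, with 62.1 ± 15.7 CPM (SD, n = 2 each). LEFTY1, an inhibitor of NODAL signalling, had 3 and 2 reads and LEFTY2 had 10 and 4. FGF4, a known target of SOX2 with OCT4, had 367 reads in replicate 1 and 505 in replicate 2, or 15.2 and 22.7 CPM. It was higher in replicate 2 by a log2 difference of 0.55 (adjusted p of 1.2e-07 in edgeR's exact binomial test). DNMT3B (log2 difference of -0.33, adjusted p of 4.2e-14), DNMT3L (-0.51, adjusted p of 6.5e-19) and UTF1 (-0.24, adjusted p of 0.0362) were lower in that test. Of the 10 tested 4 were called, again against 13.1% of all genes tested and with the same dependence on reads. UTF1 had fewer reads than its TPM predicts, by -1.77 and -1.94 on the log2 scale, so its level is uncertain.

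Among the genes of the POU family, POU5F1 had by far the highest level. Of 9 POU genes 5 were detected, which is near the 61.7% of protein-coding genes. Per length POU5F1 had 2130 ± 40.1 TPM, far above POU6F1 (10.4 ± 0.494 TPM) and POU2F1 (5.24 ± 1.39 TPM) (SD, n = 2 each). POU2F2 had 42 and 55 reads and POU3F1 had 45 and 76. POU3F3 and POU3F4, partners of SOX factors in the brain, had no read in either library. POU3F1 was higher in replicate 2 (log2 difference of 0.63, adjusted p of 0.0117 in edgeR's exact binomial test), and POU2F1 was lower (-0.38, adjusted p of 3.3e-09).

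Genes of the lineages in which the same SOX factors are best known were mostly under 1 CPM, and the counts depended on that threshold. At 0.1 CPM in both libraries, 6 of 11 endoderm, 6 of 9 endothelial and 5 of 8 Sertoli cell genes were detected. At 5 CPM it was 1 gene of each list. At 1 CPM, 3 of the 11 endoderm genes seen with SOX17 were detected: GATA4 at 39.1 ± 0.888 CPM, GATA6 at 2.88 ± 0.257 CPM and FOXA2 at 2.71 ± 0.969 CPM (SD, n = 2 each). FOXA1, CER1, AFP and TTR had no read in either library. FOXA2 had 82 and 45 reads and was lower in replicate 2 (log2 difference of -0.54, adjusted p of 0.0454 in edgeR's exact binomial test). Of 9 endothelial genes seen with SOX18, CDH5, TEK and VWF were detected. TEK, an angiopoietin receptor, had the most reads of these, with 12.7 ± 0.688 CPM (SD, n = 2), PECAM1 had 0 and 6 reads and CLDN5 had none. VWF was higher in replicate 2 (log2 difference of 0.46, adjusted p of 0.035 in the same test).

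Beside SOX9, 2 of 8 Sertoli cell genes were detected, AMH at 5.91 ± 0.139 CPM and DMRT1 at 1.42 ± 0.542 CPM (SD, n = 2 each), and DHH had no read in either library. DMRT1 is also a germ cell gene. PTGDS, not counted as detected, is uncertain, since it had 3 and 0 reads but a summed 4.43 ± 0.637 TPM (SD, n = 2). None of the 4 tested was called in edgeR's exact binomial test, where 13.1% of all genes tested were. AMH, which SOX9 is known to activate in Sertoli cells, had 145 reads in replicate 1 and 129 in replicate 2 (log2 difference of -0.04, adjusted p of 0.956 in that test). INHA had 35 and 19 reads (-0.40, adjusted p of 0.267 in that test). DMRT1 went the other way, with 25 and 40 reads, as did FGF9, with 13 and 16. Too low for the test, WT1 had 10 and 2 reads and NR5A1 had 8 and 3. Summed CPM of the list was 9.90 in replicate 1 and 9.41 in replicate 2, of which AMH held 6.01 and 5.81, so the sum says little about the other genes. Of 5 cartilage genes that SOX9 activates, ACAN was detected, with 83 and 53 reads (log2 difference of -0.39, adjusted p of 0.202 in that test), and COL2A1 had 16 and 24 reads. None of the 3 cartilage genes tested was called, against 13.1% of all genes tested. With so few genes and reads, the absence of calls in these lists says little. What lies behind the SOX9 difference was not tested.

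Of 8 neural genes seen with SOX2, SOX3 and SOX11, NES alone was detected, at 160 ± 5.58 CPM (SD, n = 2). NES encodes nestin, a filament protein that is also made outside the nervous system. HES5 and STMN2 had no read in either library, PAX6 had 0 and 1 and NEUROD1 had 1 and 0. TUBB3 is uncertain, since it had 18 and 11 reads but a summed 128 ± 4.47 TPM (SD, n = 2).

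**Figure D5:**
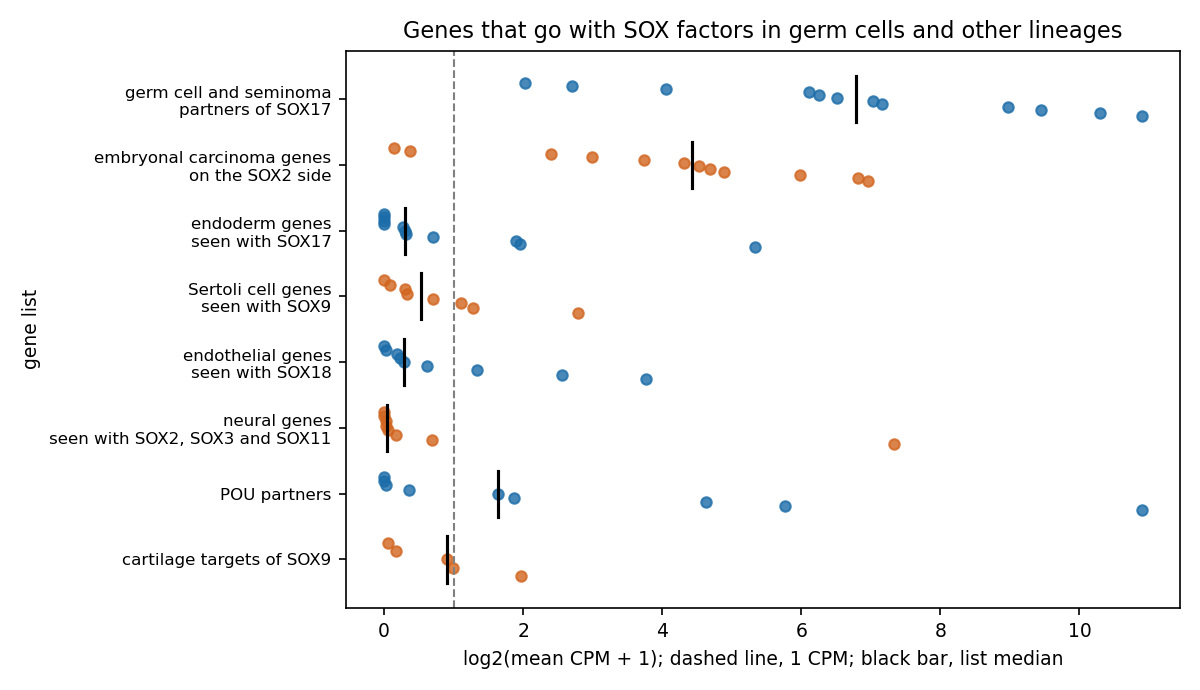
Mean level of each gene in 8 lists, as log2 of mean CPM + 1, with a point for each gene, a black bar at the list's median and a dashed line at 1 CPM. All 12 germ cell and seminoma genes lie to the right of the line, as do 10 of 12 embryonal carcinoma genes, while most endoderm, Sertoli cell, endothelial and neural genes lie to its left.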

How the data were processed

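Polyadenylated RNA of 2 replicate libraries of DDX53-transduced TCam-2 cells was analysed. Per the submitters' processing notes, Trim Galore 0.6.10, STAR 2.7.11a, DESeq2 and Salmon 1.10.2 were used with GRCh38. The role of each, the counting program and the annotation are not given in the sources used here.

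The gene table deposited by the authors is named as CPM, but its values are a signal: each library's read counts were scaled by a single factor. Dividing by that factor (1.02 and 1.12 per read) gave whole reads for 100% of the values, within 0.001 reads, and CPM was computed from these. The transcript table deposited by the authors holds TPM for 251955 transcripts. GENCODE 29 held 201667 of them, with 94.8% of the TPM, and TPM was summed per gene. The design assumed a protein table for the HMG box, which was not used here; coding DNA of GENCODE 29 transcripts took its place, translated only to find the start motif.

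Reads were compared between libraries with edgeR 4.0.16 (R 4.3.3; exact binomial test, TMM, filterByExpr, Benjamini-Hochberg, threshold 0.05), and with DESeq2 1.42.0 size factors as an alternative. The calculations were tested on simulated data. Exact read ratios used Clopper-Pearson intervals. The headers hold no name for the identifiers, so each name was read as that of a value column, and 0 value columns remained without a sample.

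The members, the gene lists and the rule for named genes (the 10 members, the other 9 SOX genes, the list genes and genes that overlap a member) were chosen with earlier results of these data known. Of the alternatives tried, the closing section gives the effect.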

Additional observations from a re-analysis of the deposited data

How the results depend on the processing

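No paired analysis was possible because there is only 1 group. The ratio of SOX17 to SOX2 per length was 150 from CPM per kilobase of merged exons, against 187 from TPM. The cause was not tested. With either library left out, the ratio was 182 to 193 per length and 135.5 to 143 in reads. Reads relative to the level predicted from TPM had a median over the 10 members that ranged, on the log2 scale, from -0.16 to -0.14. The number of members detected was 10 at 0.1 CPM, 6 at 5 CPM and 7 by TPM, and 7 to 8 with a library left out. Over the 8 lists the number of genes detected was 36, with 50 at 0.1 CPM, 25 at 5 CPM and 37 to 38 with a library left out. Among single lists, the number detected at 1 CPM, 0.1 CPM and 5 CPM was 3, 6 and 1 of the endoderm genes, 3, 6 and 1 of the endothelial genes, and 2, 5 and 1 of the Sertoli cell genes. Cartilage genes numbered 1, 3 and 0, and 2 with either library left out. Neural genes went from 1 to 2 at 0.1 CPM, and POU genes from 5 to 3 at 5 CPM. SOX9, SOX12 and SOX15 were called with DESeq2 size factors, with library totals and with every gene with a read, and SOX4 with library totals as well. Library totals made 46.0% of the calls over all genes higher in replicate 2, against 51.6% with TMM. Depth limits SOX2, SOX3 and SOX11, which rest on 3 to 24 reads in a library.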

Other observations

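Genes named after a SOX gene but without a protein were measured as well. SOX2-OT, whose span encloses SOX2, had 5.43 CPM from 131 reads in replicate 1 (95% Wilson interval, 4.57 to 6.44) and 7.30 CPM from 162 reads in replicate 2 (6.26 to 8.51). The library of replicate 2 was the higher, the intervals overlapped, and edgeR's exact binomial test gave an adjusted p of 0.0772. Of its 89 matched transcripts 4 were above 0 in both libraries and 8 in either. In TPM SOX2-OT had 2.55 and 3.64, against 0.618 and 0.683 for SOX2. In CPM per kilobase of merged exons the order was reversed, with 0.172 and 0.231 against 0.396 and 0.430. The order of this pair per length thus depends on the measure. SOX21-AS1 had 24 and 17 reads, SOX1-OT had 1 and 2, SOX9-AS1 had 1 and 0, and SOX5-AS1 had no read in either library. NRSN2-AS1, which lies on the strand opposite to SOX12 and shares no exonic base with it, had 124 reads in replicate 1 and 102 in replicate 2.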
